A study of Mus musculus with 6 samples.

Results

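MHC class I molecules show peptides from inside the cell to CD8 T cells. Their genes were followed here through the intraepithelial lymphocytes (IEL) of the mouse small intestine, which are T cells lodged between the epithelial cells of the gut lining. The genes are B2m, H2-K1, H2-D1, H2-T23, Tap1, Tap2 and Tapbp. They are 7 of 8949 gene symbols annotated on the array. Every probe set that the platform annotation assigns to 1 of these 7 genes, alone or in a list of several symbols, was taken. That gave 17 of the 12422 probe sets of the table that are not controls, of which 13 carried 1 symbol and 4 carried several. A filter on dim probe sets left 15 of the 17 among 8299 tested.

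The IEL came from the small intestine of untreated C57BL/6 mice under 8 weeks of age and were sorted into 3 subsets by T cell receptor and CD8 form. The subsets were TCRgd CD8aa, TCRab CD8aa and TCRab CD8ab. The last carries the CD8 dimer of conventional CD8 T cells, which binds class I molecules as a coreceptor. In each of 2 experiments the 3 subsets were sorted from 1 pool of 20 mice, so the arrays of an experiment are paired. There was 1 Affymetrix array per subset and experiment, so each subset has 2 arrays. Some titles spell the gamma delta subset TCRgb, and the spelling TCRgd of the source names was used.

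Of 8 markers of T cells, 7 had a probe set, and none of these lay at the floor on any array, the level to which the dimmest values were raised. Their summed signal was 35311 and 71436 in TCRgd CD8aa, 39541 and 69093 in TCRab CD8aa and 43364 and 63688 in TCRab CD8ab. The lower value of each pair was that of experiment 2. Among these markers Cd2 came near the floor (log2 signal 3.94) on the TCRgd CD8aa array of experiment 1, at 4.05. In experiment 2 it had 6.66 there. Cd2 had 8.03 and 8.14 in TCRab CD8aa and 11.70 and 11.63 in TCRab CD8ab, in experiments 1 and 2. The log2 signal of Cd8b1, the beta chain of CD8, was 4.81 and 9.58 in TCRgd CD8aa, 4.88 and 7.51 in TCRab CD8aa and 14.11 and 14.75 in TCRab CD8ab, with experiment 1 first in each pair. The 13 enterocyte markers with a probe set summed to 27035 on the TCRgd CD8aa array of experiment 2 and to 1296 to 2618 on the other 5 arrays. The 3′ to 5′ signal ratio of the beta-actin control probe sets, a measure of how complete the labelled RNA was, lay between 40.4 and 52.2 in experiment 2 and between 1.41 and 1.76 in experiment 1. For GAPDH it lay between 22.3 and 29.6 in experiment 2 and between 3.38 and 5.20 in experiment 1.

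A class I molecule is a heavy chain bound to beta-2 microglobulin, the product of B2m. H2-K1 and H2-D1 encode the classical heavy chains, which present peptides widely. H2-T23 encodes the heavy chain of Qa-1, a nonclassical molecule recognised by CD94/NKG2 receptors. Peptides made by the proteasome are pumped into the endoplasmic reticulum by the TAP transporter, a dimer of Tap1 and Tap2. Tapasin, the product of Tapbp, bridges the transporter and the empty heavy chain. Interferons raise most of these genes through interferon regulatory factors (IRF), and the promoters of classical heavy chains and B2m are known for conserved elements.

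The promoters of B2m, H2-K1, H2-D1 and Tap1 are shown because these genes span the 3 parts of the pathway and because H2-K1 and H2-D1 are close copies. Windows from RefSeq (GRCm38.p6) were found for 6 of the 7 genes, Tap2 being the exception. Each sequence below holds the 250 bases before an annotated start, 5′ to 3′ on the strand of the gene. The window of B2m is chr2:122147437-122147686 (plus strand), that of H2-K1 chr17:34000348-34000597 (minus strand), that of H2-D1 chr17:35262844-35263093 (plus strand) and that of Tap1 chr17:34187306-34187555 (plus strand). Capitals mark matches, on either strand, to an IRF half-site (AANNGAAA), a kappaB-like motif (GGG, any 2 bases, TT, any base, CC), the CCAAT box (CCAAT) and the core of a cyclic AMP response element (TGACG).
B2m: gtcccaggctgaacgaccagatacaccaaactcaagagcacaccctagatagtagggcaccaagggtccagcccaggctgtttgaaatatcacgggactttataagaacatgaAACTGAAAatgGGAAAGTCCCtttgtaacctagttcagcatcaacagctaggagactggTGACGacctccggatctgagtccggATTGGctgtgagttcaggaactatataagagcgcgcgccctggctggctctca
H2-K1: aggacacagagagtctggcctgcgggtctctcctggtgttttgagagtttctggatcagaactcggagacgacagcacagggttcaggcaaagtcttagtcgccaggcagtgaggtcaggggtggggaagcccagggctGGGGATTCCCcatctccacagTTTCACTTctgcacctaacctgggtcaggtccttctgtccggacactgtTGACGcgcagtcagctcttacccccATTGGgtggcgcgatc
H2-D1: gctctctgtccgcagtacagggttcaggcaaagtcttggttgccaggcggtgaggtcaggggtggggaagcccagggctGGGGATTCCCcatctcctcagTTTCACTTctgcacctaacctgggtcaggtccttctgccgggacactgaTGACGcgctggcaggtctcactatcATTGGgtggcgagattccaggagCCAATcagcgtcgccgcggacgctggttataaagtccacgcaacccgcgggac
Tap1: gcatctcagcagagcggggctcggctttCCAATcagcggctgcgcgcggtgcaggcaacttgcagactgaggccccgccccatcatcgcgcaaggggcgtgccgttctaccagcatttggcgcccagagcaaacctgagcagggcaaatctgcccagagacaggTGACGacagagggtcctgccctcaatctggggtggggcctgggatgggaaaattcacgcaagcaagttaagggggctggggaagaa

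All 4 motifs were found before B2m, H2-K1 and H2-D1. Before Tap1, CCAAT and TGACG were found and the other two were not. Before H2-T23 the IRF half-site and CCAAT were found, and before Tapbp CCAAT alone of the 4. Over 32851 windows of 250 bases in the table, 21.3% held the IRF half-site, 4.11% the kappaB-like motif, 33.8% CCAAT and 17.8% TGACG. These are matches of letters and do not show binding. The H2-K1 and H2-D1 windows aligned over 177 columns, of which 161 (91%) were identical. The start of Tap1 lies 226 bases from that of Psmb9 on the opposite strand, so the window of Tap1 is also the upstream region of this immunoproteasome gene.

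Values below are log2 of the MAS5 signal, 1 value per array. For each subset the array of experiment 1 is given first and that of experiment 2 second. A lower signal in a sorted pool can come from fewer cells with the transcript or from less RNA per cell, which cannot be told apart here. The labels do not name separate animals, so p-values measure the spread between arrays of pooled cells and not between mice. Where the experiment is fitted as a block, the mean difference between the experiments is taken out of that spread. In limma the spread of each probe set is also drawn toward that of all tested probe sets.

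B2m had a strong signal in all 3 subsets. It was 14.33 and 14.47 in TCRgd CD8aa, 14.59 and 13.91 in TCRab CD8aa and 14.60 and 14.47 in TCRab CD8ab. The lowest of the 6 was the TCRab CD8aa array of experiment 2, and the other 5 lay within a narrow range. TCRab CD8aa overlapped TCRab CD8ab. Both TCRgd CD8aa arrays were below both TCRab CD8ab arrays, but in experiment 2 they were equal to the second decimal. With the experiment as a block, the difference in TCRab CD8aa against TCRab CD8ab was -0.28 ± 0.32 (limma SE, n = 2 arrays per subset), with a 95% interval from -1.01 to 0.44. That interval corresponds to 0.497 to 1.36 times the TCRab CD8ab level. For TCRgd CD8aa against TCRab CD8ab the difference was -0.14 ± 0.32, with an interval from -0.86 to 0.59.

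H2-K1 was read by 3 probe sets with that symbol alone. The brightest had 15.23 and 14.01 in TCRgd CD8aa, 15.29 and 13.64 in TCRab CD8aa and 15.15 and 14.31 in TCRab CD8ab. In experiment 1 the subsets differed by at most 0.14, and in experiment 2 TCRab CD8ab was the highest. With the block the difference from TCRab CD8ab was -0.11 ± 0.32 in TCRgd CD8aa and -0.26 ± 0.32 in TCRab CD8aa (limma SE, n = 2). The second in brightness showed the same order in experiment 2, with 10.48 in TCRgd CD8aa, 9.84 in TCRab CD8aa and 11.21 in TCRab CD8ab. Its values in experiment 1 lay between 12.88 and 12.92. The third was dim and ran the other way in experiment 2, with 7.01 in TCRgd CD8aa, 7.59 in TCRab CD8aa and 6.03 in TCRab CD8ab.

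The array maker marks, by an f in the name, probe sets whose probes are shared within a gene family. Signals of such probe sets cannot be assigned to 1 heavy chain with certainty. All 3 probe sets that carry the symbol of H2-D1 alone are so marked, as are the brightest 2 of H2-K1. A further marked probe set carries 10 symbols, among them H2-K1, H2-D1 and H2-T23.

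H2-D1 had as its brightest probe set one with 14.67 and 13.26 in TCRgd CD8aa, 14.65 and 13.20 in TCRab CD8aa and 14.61 and 13.76 in TCRab CD8ab. Its 3 subsets were almost equal in experiment 1, and TCRab CD8ab was the highest in experiment 2, as for H2-K1. The difference from TCRab CD8ab was -0.22 ± 0.31 in TCRgd CD8aa and -0.26 ± 0.31 in TCRab CD8aa with the block (limma SE, n = 2). The second in brightness had 14.49 and 11.10 in TCRgd CD8aa, 14.21 and 11.54 in TCRab CD8aa and 14.36 and 11.75 in TCRab CD8ab. Here the gap between the experiments was far wider than any gap between subsets. The third ran the other way in experiment 2, with 11.03 in TCRgd CD8aa, 10.92 in TCRab CD8aa and 10.39 in TCRab CD8ab.

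H2-T23 had no probe set of its own. It shares a probe set with the symbol H2-T-ps. That probe set had 11.69 and 11.71 in TCRgd CD8aa, 11.51 and 12.02 in TCRab CD8aa and 11.58 and 12.18 in TCRab CD8ab. All groups overlapped. The difference from TCRab CD8ab was -0.18 ± 0.29 in TCRgd CD8aa and -0.11 ± 0.29 in TCRab CD8aa with the block (limma SE, n = 2). The probe set with 10 symbols had 13.78 and 9.87 in TCRgd CD8aa, 13.46 and 10.64 in TCRab CD8aa and 13.90 and 11.53 in TCRab CD8ab. Its difference in TCRgd CD8aa against TCRab CD8ab was -1.66 in experiment 2 and -0.11 in experiment 1. The blocked difference was -0.89 ± 0.38 (limma SE, unadjusted p = 0.0436, adjusted p = 0.577). In that blocked comparison 681 of 8299 tested probe sets had an unadjusted limma p under 0.05.

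Of the other 2 probe sets with several symbols, the one with 4 (among them H2-K1) had 8.40 and 8.14 in TCRgd CD8aa, 8.09 and 6.76 in TCRab CD8aa and 8.11 and 8.06 in TCRab CD8ab. The one with 5 (among them H2-D1) did not pass the filter. It had 4.0 to 5.01 in TCRgd CD8aa, 3.94 to 4.55 in TCRab CD8aa and 5.38 to 5.61 in TCRab CD8ab, with 1 array at the floor of 3.94.

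**Figure D1:**
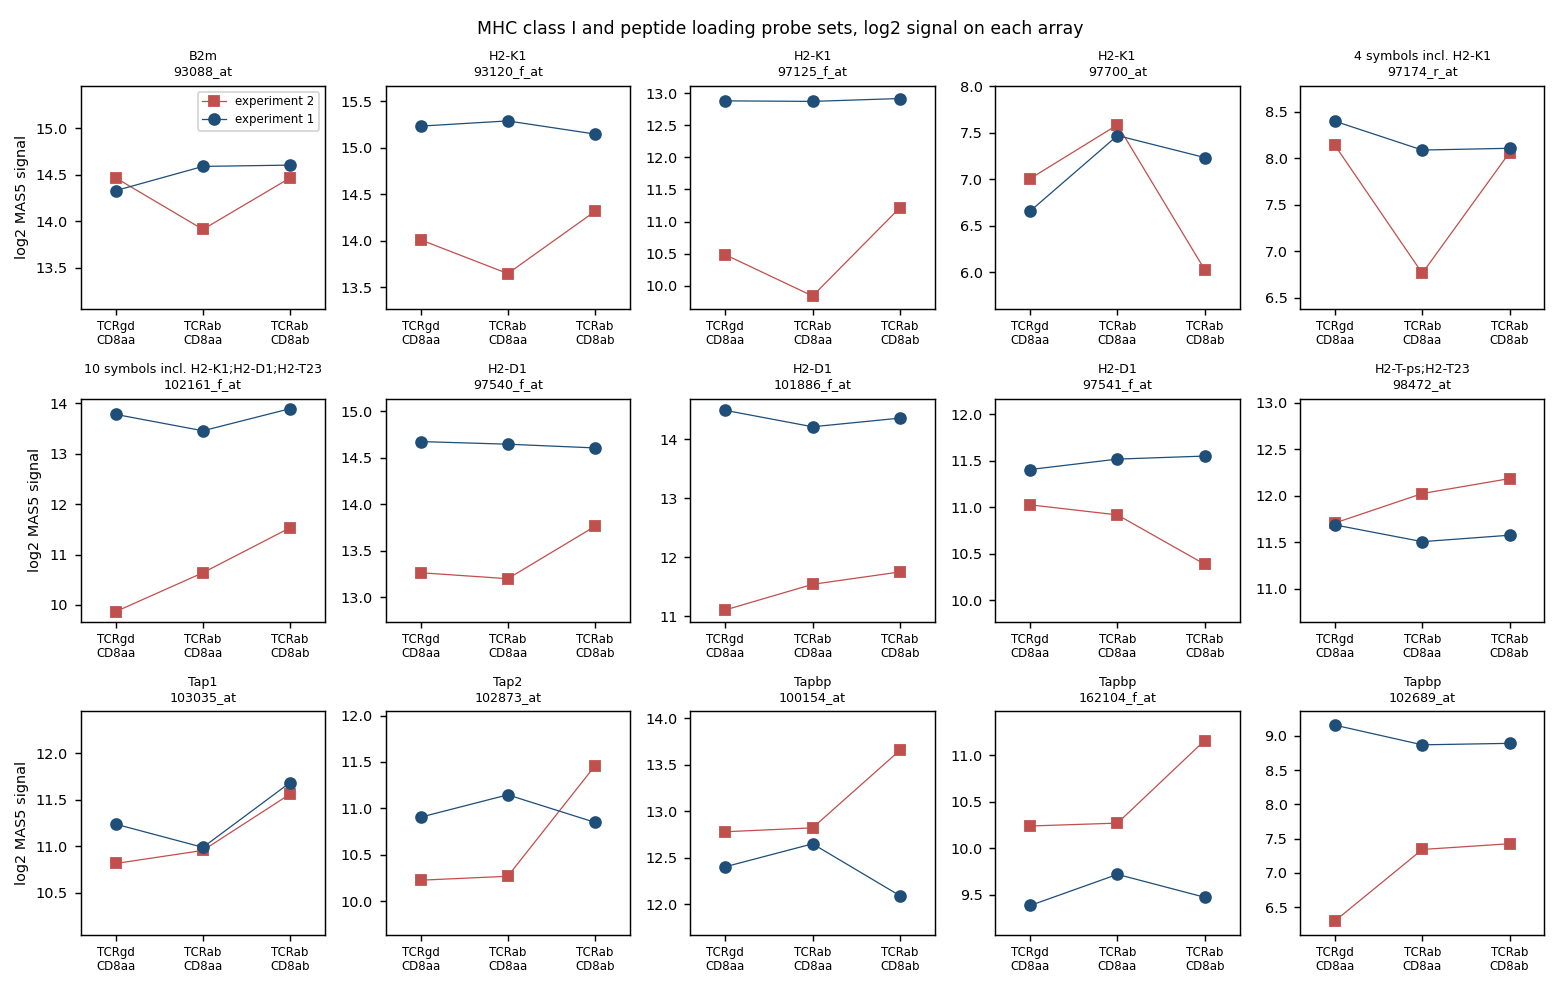
Log2 MAS5 signal (y axis, own range in each panel) of the 15 tested probe sets of the 7 genes in TCRgd CD8aa, TCRab CD8aa and TCRab CD8ab. Each point is 1 array, squares are experiment 2 and circles experiment 1, and lines join the arrays of 1 experiment. The points of Tap1 are highest in TCRab CD8ab in both experiments, at 11.68 and 11.56, while the brightest 2 probe sets each of H2-D1 and H2-K1 are split mainly by experiment.

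Tap1, a subunit of the peptide transporter, was highest in TCRab CD8ab in both experiments. Its tested probe set had 11.24 and 10.81 in TCRgd CD8aa, 10.99 and 10.95 in TCRab CD8aa and 11.68 and 11.56 in TCRab CD8ab. All 4 CD8aa arrays lay below both TCRab CD8ab arrays, which held for 1 of 15 probe sets of these genes and for 6.17% of all tested probe sets. Tap1 was singled out after its values were seen.

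Tap1 was at 0.636 times the TCRab CD8ab level in TCRab CD8aa, a difference of -0.65 ± 0.28 with the block (limma SE, n = 2, 95% interval from -1.29 to -0.01). In TCRgd CD8aa it was at 0.661 times that level, or -0.60 ± 0.28 (interval from -1.24 to 0.04). Neither passed over all probe sets, with adjusted p of 0.491 and 0.648 with the block (unadjusted p = 0.0473 and 0.0647) and of 1.00 without it. The 2 CD8aa subsets differed by 0.05 ± 0.28 in TCRgd CD8aa against TCRab CD8aa. The second probe set of Tap1 did not pass the filter and had 5.68 and 5.79 in TCRgd CD8aa, 4.54 and 3.94 in TCRab CD8aa and 5.68 and 5.08 in TCRab CD8ab.

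Tap2, the other subunit of the transporter, did not keep its order between experiments. It had 10.91 and 10.23 in TCRgd CD8aa, 11.15 and 10.27 in TCRab CD8aa and 10.85 and 11.46 in TCRab CD8ab. In experiment 1 TCRab CD8ab was the lowest, and in experiment 2 it was the highest by more than 1 log2 unit. The blocked differences from TCRab CD8ab were -0.59 ± 0.39 in TCRgd CD8aa and -0.45 ± 0.39 in TCRab CD8aa (limma SE, n = 2).

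Tapbp had 3 probe sets. The brightest had 12.40 and 12.78 in TCRgd CD8aa, 12.65 and 12.82 in TCRab CD8aa and 12.09 and 13.66 in TCRab CD8ab. As for Tap2, TCRab CD8ab was the lowest in experiment 1 and the highest in experiment 2. The blocked difference from TCRab CD8ab was -0.28 ± 0.37 in TCRgd CD8aa and -0.14 ± 0.37 in TCRab CD8aa (limma SE, n = 2). The second in brightness had 9.38 and 10.24 in TCRgd CD8aa, 9.72 and 10.27 in TCRab CD8aa and 9.47 and 11.16 in TCRab CD8ab. The dimmest had 9.15 and 6.30 in TCRgd CD8aa, 8.87 and 7.34 in TCRab CD8aa and 8.89 and 7.43 in TCRab CD8ab. In both, TCRab CD8ab was the highest in experiment 2 only.

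No probe set of the 7 genes passed an adjusted p of 0.05 in any comparison between subsets. The limma fit without a term for the experiment called 0 of 15, and 0% of all tested probe sets, in each of the 3 comparisons. At an unadjusted p under 0.05 that fit had 0 of 15 in each, against 187 of 8299 when TCRab CD8aa was set against TCRab CD8ab, 168 when TCRgd CD8aa was, and 34 between the CD8aa subsets. With the block, 1 of 15 reached that level in each comparison with TCRab CD8ab, against 837 of 8299 for TCRab CD8aa and 681 for TCRgd CD8aa. Between the CD8aa subsets 0 of 15 did, against 172 of all tested. At the adjusted threshold limma with the replicate block again called 0 of 15 in each. Of all tested probe sets it called 0.819% when TCRab CD8aa was set against TCRab CD8ab, 0.554% when TCRgd CD8aa was, and 0.0241% between the CD8aa subsets. The smallest adjusted p of the 15 with the block was 0.491 for TCRab CD8aa and 0.577 for TCRgd CD8aa against TCRab CD8ab, and 1.00 between the CD8aa subsets. With 2 arrays per subset these values do not show that the subsets are alike.

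For TCRab CD8aa against TCRab CD8ab, 1 of 15 probe sets had both arrays below both (12.8% of all tested) and 1 had both above both (10% of all tested). The first was that of Tap1 and the second the dimmest of H2-K1. For TCRgd CD8aa against TCRab CD8ab, 2 of 15 were below (10.4% of all tested), those of Tap1 and B2m, and 1 was above (9.39% of all tested), the one with 4 symbols. For TCRgd CD8aa against TCRab CD8aa, 1 of 15 was below (6.64% of all tested), the dimmest of H2-K1, and 1 above (7.78% of all tested), the one with 4 symbols. These counts are close to the background.

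The experiments gave different pictures of TCRab CD8ab. In experiment 2 it was the highest of the 3 subsets for 12 of 15 probe sets, against 48.3% of all tested. In experiment 1 it was the highest for 5 of 15, against 34.3% of all tested. In experiment 2 the median log2 difference of the 15 was -0.64 in TCRgd CD8aa against TCRab CD8ab, where that of all tested probe sets was -0.17. For TCRab CD8aa against TCRab CD8ab it was -0.61, where that of all tested was -0.20. In experiment 1 the medians were 0.06 for TCRgd CD8aa and -0.02 for TCRab CD8aa, against 0.03 and 0.02 for all tested. Several of the 15 probe sets read the same gene or family, and no test was made of these counts. With quantile normalization the experiment 2 medians were -0.61 in TCRgd CD8aa and -0.33 in TCRab CD8aa, against -0.08 and 0.00 for all tested.

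The TCRgd CD8aa array of experiment 2 is the one with raised enterocyte markers, and all arrays of experiment 2 had the high 3′ to 5′ ratios given above. The part of either in these values was not tested. In experiment 2 TCRgd CD8aa was below TCRab CD8ab for 12 of 15 probe sets, which includes B2m, equal to TCRab CD8ab to the second decimal, and TCRab CD8aa for 13 of 15. The shares of all tested probe sets below 0 were 58.2% for TCRgd CD8aa and 58.9% for TCRab CD8aa.

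**Figure D2:**
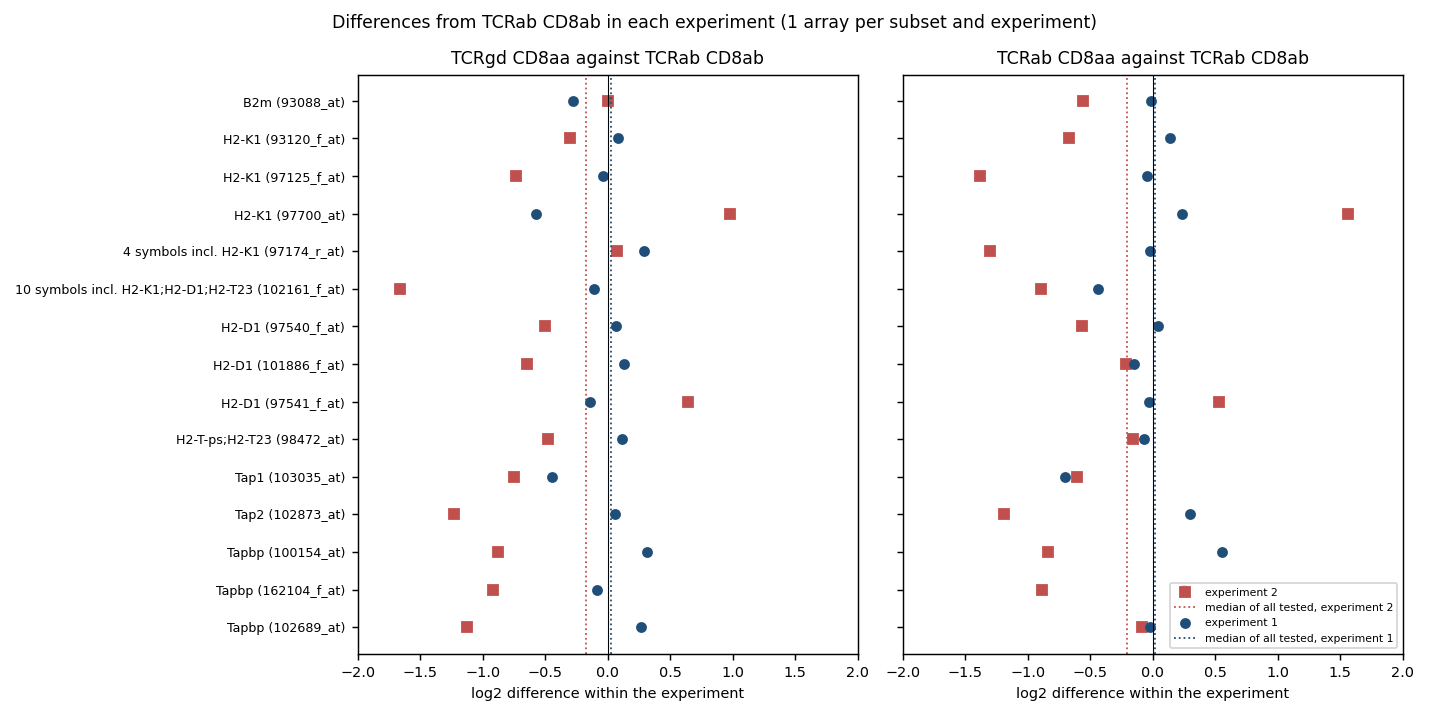
Log2 difference within each experiment (x axis) of the 15 tested probe sets, for TCRgd CD8aa against TCRab CD8ab (left) and TCRab CD8aa against TCRab CD8ab (right). Squares are experiment 2, circles experiment 1, each from 1 array per subset, and dotted lines are the medians of all tested probe sets. In experiment 2, 12 (left) and 13 (right) of 15 points lie below 0, against 7 and 9 in experiment 1.

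For most heavy chain probe sets the experiments lay farther apart than the subsets; the dimmest of H2-K1 and the one with 4 symbols, at -0.25 and -0.54 between experiments, are exceptions. In limma with the subset in the fit, 6 of 15 probe sets were lower in experiment 2 than in experiment 1 at adjusted p under 0.05, where 20.4% of all tested were. A further 1 was higher, where 13.7% of all tested were. The probe set with 10 symbols averaged 10.68 in experiment 2 and 13.71 in experiment 1, a difference of -3.03 ± 0.31 (SE, 3 arrays per experiment, limma adjusted p = 0.000272).

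Among those of H2-D1, the second in brightness differed by -2.89 ± 0.25 (limma adjusted p = 0.000179), or 7.41-fold lower in experiment 2. The brightest differed by -1.23 ± 0.25 (adjusted p = 0.00536), and the third by -0.71 ± 0.25, which did not pass (adjusted p = 0.0542). Those of H2-K1 differed by -2.38 ± 0.29 for the second in brightness (adjusted p = 0.0005) and by -1.23 ± 0.26 for the brightest (adjusted p = 0.00677). For the dimmest the difference was -0.25 ± 0.44. Probe sets with the same symbol thus differed between experiments by amounts more than 2 log2 units apart. All but the dimmest of H2-K1 carry the f mark, so their signals cannot be assigned to 1 heavy chain with certainty.

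The probe sets of Tapbp disagreed in direction. Its dimmest probe set was lower in experiment 2, by a difference of -1.95 ± 0.37 (limma adjusted p = 0.00403), while the second was higher by 1.03 ± 0.29 (adjusted p = 0.0222). The brightest differed by 0.70 ± 0.30 (adjusted p = 0.102). The second carries the f mark of probes shared within a family, and the brightest did not pass. No direction between the experiments is therefore given for the gene. The positions of the probes along the transcripts were not used here, so whether the split follows the 3′ to 5′ ratio of the RNA was not tested.

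B2m, Tap1, Tap2 and the probe set shared by H2-T23 did not pass between the experiments. Their differences were -0.23 ± 0.26 for B2m, -0.19 ± 0.23 for Tap1, -0.32 ± 0.32 for Tap2 and 0.38 ± 0.24 for the probe set of H2-T23 (limma SE). For Tap2 the 3 subsets moved differently, with -0.68 in TCRgd CD8aa, -0.88 in TCRab CD8aa and 0.61 in TCRab CD8ab. For Tap1 the 3 values lay between -0.42 and -0.03. Without the filter on dim probe sets 1 of 17 passed between experiments, where 4.07% of all 12422 did, in place of 7 of 15, where 34.1% of all tested did.

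**Figure D3:**
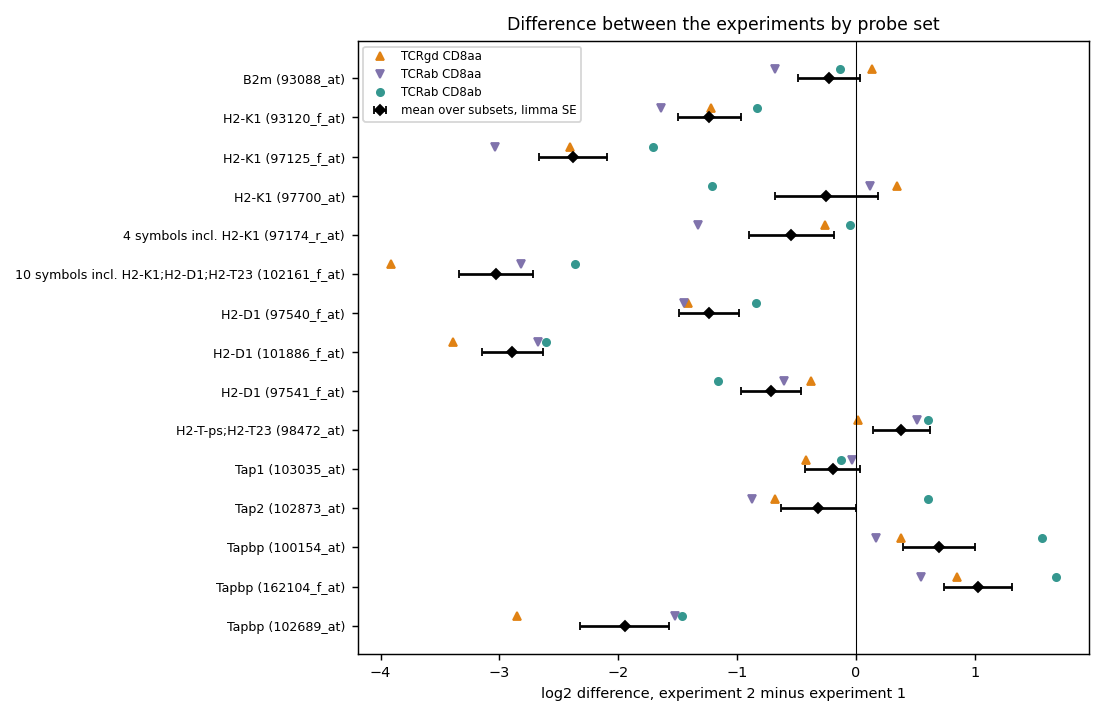
Log2 difference of experiment 2 minus experiment 1 (x axis) for the 15 tested probe sets. Diamonds with bars are the limma estimate over the 3 subsets with its SE, and coloured points are the single subsets. The heavy chain probe sets range from -3.03 to 0.38, and those of Tapbp lie on both sides of 0.

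Genes of class I presentation were also taken from lists, with 1 probe set per gene, the brightest tested one with a single symbol. The lists are not separate from the genes described above. The tested heavy chain genes include H2-K1 and H2-D1, and those of peptide loading include Tap1, Tap2 and Tapbp. The medians of these lists therefore partly repeat values given above. Of 27 class I heavy chain and class I-like genes, 10 were tested, and 0 passed in either direction in any comparison in either limma fit. The median was -0.07 in TCRgd CD8aa against TCRab CD8ab and -0.27 in TCRab CD8aa against TCRab CD8ab. Cd1d1, a class I-like molecule that presents lipids, had 11.03 and 11.73 in TCRgd CD8aa, 11.39 and 11.85 in TCRab CD8aa and 10.67 and 11.32 in TCRab CD8ab. It was higher than TCRab CD8ab in both CD8aa subsets in both experiments, by 0.38 ± 0.28 in TCRgd CD8aa and 0.62 ± 0.28 in TCRab CD8aa (limma SE with the block, adjusted p = 0.761 and 0.498). H2-M3, which presents formylated peptides, had -0.36 ± 0.29 in TCRgd CD8aa and -0.28 ± 0.29 in TCRab CD8aa. The nonclassical H2-Q10 and H2-Bl had -0.68 ± 0.43 and -0.43 ± 0.35 in TCRab CD8aa, and H2-Q4 had -0.56 ± 0.38 in TCRgd CD8aa, against TCRab CD8ab. The probe sets of H2-Bl, H2-Q4 and H2-Q1 carry the f mark too, so their signals cannot be assigned to 1 gene with certainty. That of H2-Q4 had 13.96 and 9.64 in TCRgd CD8aa, 13.56 and 10.51 in TCRab CD8aa and 13.78 and 10.94 in TCRab CD8ab. H2-Q1 stood at 11.02 on the TCRgd CD8aa array of experiment 2, the array with raised enterocyte markers, and at 6.40 to 7.55 on the other 5.

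Of 17 genes of the peptide loading complex and of folding in the endoplasmic reticulum, 13 were tested and 0 passed in either direction. Their median was -0.28 in TCRgd CD8aa against TCRab CD8ab and -0.27 in TCRab CD8aa against TCRab CD8ab. Tap1 had the smallest p of the list in both. Ganab, a subunit of the glucosidase that trims new glycoproteins, had -0.72 ± 0.39 in TCRgd CD8aa and -0.48 ± 0.39 in TCRab CD8aa (limma SE with the block). P4hb, a disulphide isomerase, had -0.38 ± 0.36 in TCRab CD8aa. Sec61b, of the translocation channel, had -1.36 ± 0.83 in TCRgd CD8aa, with -3.46 in experiment 2, where that array was at the floor, and 0.74 in experiment 1.

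The 4 tested genes of the immunoproteasome and its activator are the source of peptides for the transporter. They had a median of -0.64 in TCRgd CD8aa against TCRab CD8ab and of -0.74 in TCRab CD8aa against TCRab CD8ab, and 0 of 4 passed. In both experiments all 4 had a lower value in TCRab CD8aa than in TCRab CD8ab, as had 30.1% of all tested probe sets. In TCRgd CD8aa 3 of 4 did, as did 28.7% of all tested. Nothing particular to these 4 genes is drawn from the counts. Psmb9, the neighbour of Tap1, had 11.59 and 10.44 in TCRgd CD8aa, 11.67 and 10.57 in TCRab CD8aa and 12.19 and 11.43 in TCRab CD8ab. Within each experiment TCRab CD8ab was the highest, as for Tap1. Its blocked differences from TCRab CD8ab were -0.79 ± 0.28 in TCRgd CD8aa and -0.69 ± 0.28 in TCRab CD8aa (limma adjusted p = 0.479 and 0.465). Psmb8, another catalytic subunit, had 12.10 and 13.26 in TCRgd CD8aa, 11.56 and 12.57 in TCRab CD8aa and 12.13 and 13.70 in TCRab CD8ab. Its difference from TCRab CD8ab was -0.23 ± 0.29 in TCRgd CD8aa and -0.85 ± 0.29 in TCRab CD8aa (adjusted p = 0.867 and 0.384). The catalytic subunit Psmb10 had -0.48 ± 0.35 in TCRgd CD8aa and -0.51 ± 0.35 in TCRab CD8aa. The activator subunit Psme1 had -1.05 ± 0.36 in TCRgd CD8aa and -0.79 ± 0.36 in TCRab CD8aa.

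Of 22 regulators of class I genes, 15 were tested. With the block 1 of 15 was higher and 0 lower in each comparison with TCRab CD8ab, 0 passed in TCRgd CD8aa against TCRab CD8aa, and without the block 0 passed. The gene that passed was Irf8, an IRF of myeloid and lymphoid cells. It had 11.53 and 10.69 in TCRgd CD8aa, 11.57 and 11.15 in TCRab CD8aa and 9.0 and 8.28 in TCRab CD8ab. All 4 CD8aa arrays were above both TCRab CD8ab arrays. Both arrays lay above both TCRab CD8ab arrays for 9.39% of all tested probe sets in TCRgd CD8aa and for 10% in TCRab CD8aa. The share for all 4 arrays at once was not computed. The difference from TCRab CD8ab was 2.47 ± 0.30 in TCRgd CD8aa (limma adjusted p = 0.00824 with the block, 1.00 without) and 2.72 ± 0.30 in TCRab CD8aa (adjusted p = 0.00345 with the block, 0.617 without). With the block but no filter on dim probe sets the call was lost in both, at limma adjusted p of 0.335 in TCRgd CD8aa and 0.522 in TCRab CD8aa. Of 13 settings with the block, 11 kept it in TCRgd CD8aa and 10 in TCRab CD8aa, where leaving out the TCRab CD8aa array of experiment 2 also ended it (adjusted p = 0.0636). The median of the list was -0.15 in TCRgd CD8aa and -0.08 in TCRab CD8aa against TCRab CD8ab.

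**Figure D4:**
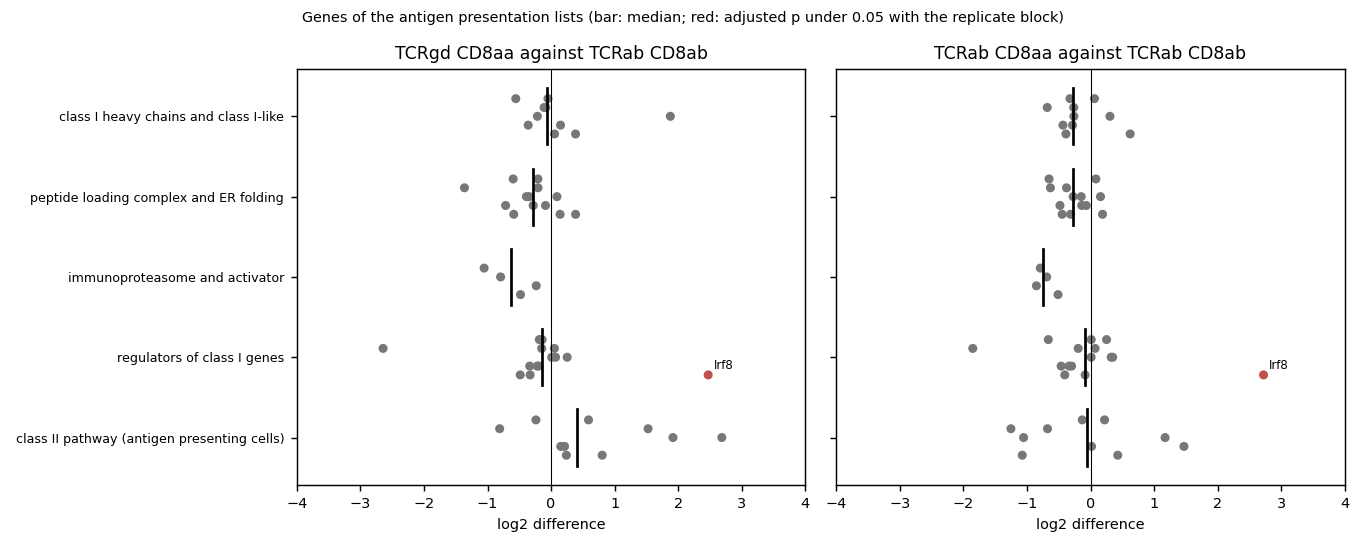
Log2 difference (x axis) of the tested genes of 5 lists for TCRgd CD8aa against TCRab CD8ab (left) and TCRab CD8aa against TCRab CD8ab (right). Each point is 1 gene, the vertical bar is the median of its list, and red marks an adjusted p under 0.05 in limma with the replicate block. Only Irf8 is red. All 4 genes of the immunoproteasome and its activator lie left of 0 in both panels. Of all 8299 tested probe sets, 4539 (left) and 4614 (right) do.

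The profile of the 7 genes was taken as the mean of their brightest probe sets over the 6 arrays, with each experiment centred on its own mean. It stood at 0.41 on the TCRab CD8ab array of experiment 2, -0.18 on the TCRgd CD8aa array and -0.24 on the TCRab CD8aa array of that experiment, and between -0.02 and 0.03 on the 3 arrays of experiment 1. The genes correlated with this profile, in which they are contained, at Pearson's r of 0.99 for H2-D1, 0.98 for Tap2, 0.88 for Tapbp, 0.87 for H2-K1, 0.69 for Tap1, 0.63 for H2-T23 and 0.54 for B2m. The 5 other genes most like it were Fmc1, Lrch4, Mecr, Ppp1r18 and Wdr55, with r between 0.997 and 0.999 over 6 arrays. Of 7387 probe sets compared, 645 had r above 0.9, and all share the arrays and their scaling. For Fmc1 the centred value was 1.62 on the TCRab CD8ab array of experiment 2, so this likeness rests on that array.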

How the data were processed

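Messenger RNA of 3 sorted IEL subsets was measured on 6 arrays. The values that the authors deposited are linear signal intensity, 1 per probe set, and MAS5 is named in the submitters' processing notes without a version. The trimmed mean (2% left out at each end) was nearly equal on all arrays, and each was scaled to the common one. The floor was the 20th percentile of all values (signal 15.3), and analysis used log2 of the floored signal. Probe sets with at least 2 arrays above the 40th percentile (signal 56.4) were tested. All 6 arrays entered each fit, made with limma 3.58.1 (R 4.3.3) with a trend of variance on intensity, and the code was checked on simulated data. Benjamini-Hochberg adjustment ran over all 8299, with a threshold of 0.05. The planned fit had no term for the experiment. It thus left out the pairing of the 3 subsets sorted from 1 pool per experiment. The replicate number is the experiment. Deviations from subset means correlated between subsets at r of 0.603, 0.618 and 0.713. Blocked values therefore stand beside those of the planned fit. The same arrays of TCRab CD8ab serve both comparisons with it.

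The genes and lists were chosen with earlier results of these data known. All probe sets of the 7 genes were described. Of each list, genes past the threshold or, where there were none, the 4 with the smallest p were eligible, and those not named had no adjusted p under 0.05. The single markers of macrophages and dendritic cells, Lyz2 among them, were named after their values were seen. The number of arrays limits the precision.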

Additional observations from a re-analysis of the deposited data

How the results depend on the processing

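With the replicate block, which is the pairing by experiment, the count of called probe sets was 0 of 15 in each comparison of subsets, as without it. It was also 0 under each other alternative run: other scaling, floor, filter, variance prior or threshold, only the arrays compared, and each array left out, alone or with the block where this was run. Over these alternatives the smallest adjusted p of these probe sets was 0.0715, for the one with 10 symbols in TCRgd CD8aa against TCRab CD8ab with the replicate block and without TCRgd CD8aa replicate 1. The looser threshold, an adjusted p of 0.10, was applied only to the planned fit without the block, so the counts with the block do not extend to it. For Tap1 the log2 difference ranged from -0.81 to -0.39 in TCRgd CD8aa and from -0.77 to -0.53 in TCRab CD8aa against TCRab CD8ab. It kept its sign in all 29 alternatives. Sign changes among values that never passed numbered 32, 38 and 53 of 433 in TCRgd CD8aa against TCRab CD8ab, TCRab CD8aa against TCRab CD8ab and TCRgd CD8aa against TCRab CD8aa. Between experiments 1 of 17 probe sets passed with no filter, where 4.07% of all tested did, against 7 of 15, where 34.1% did; the other 14 alternatives gave 6 to 8, with 22.7% to 48.2% of all tested, and the cause was not tested. Irf8 with the replicate block lost its call with no filter (adjusted p = 0.335 in TCRgd CD8aa and 0.522 in TCRab CD8aa) and without the intensity trend of the variance (0.165 and 0.0944), and in TCRab CD8aa without its array of experiment 2 (0.0636). The alternatives for Irf8 were chosen after seeing the data. With 2 arrays per subset and probe sets shared within the class I family, a difference of the size seen for Tap1 was not resolved.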

Other observations

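Genes of MHC class II, which professional antigen presenting cells use, were also read on these arrays. Of 10 genes tested, 0 passed in either limma fit in any comparison. H2-Aa, the alpha chain of the I-A molecule, had 7.50 and 8.70 in TCRgd CD8aa, 4.79 and 3.94 in TCRab CD8aa and 6.90 and 3.94 in TCRab CD8ab, in experiments 1 and 2, where 3.94 is the floor. H2-Ab1, its beta chain, had 6.21 and 8.13 in TCRgd CD8aa, 6.00 and 3.94 in TCRab CD8aa and 6.89 and 4.40 in TCRab CD8ab. Cd74, the invariant chain, had 7.09 and 8.78 in TCRgd CD8aa, 6.60 and 6.63 in TCRab CD8aa and 7.65 and 7.73 in TCRab CD8ab. The TCRgd CD8aa array of experiment 2 was the highest for these 3, for H2-Eb1 and for Ctss, as it was for 15.0% of all tested probe sets. The other 5 were highest elsewhere: H2-DMa and H2-DMb1 on the TCRgd CD8aa array of experiment 1, H2-DMb2 on the TCRab CD8aa array of experiment 2, and H2-Oa and H2-Ob on the TCRab CD8ab array of experiment 1. The 6 markers of B and plasma cells with a probe set summed to a signal of 5455 on the TCRgd CD8aa array of experiment 2, against 744 to 1321 on the other 5 arrays. Most of that sum was Jchain, of plasma cells, at 11.97 there and 5.95 to 9.40 on the others. Without Jchain the sum was 1432 there and 655 to 1182 on the others. The 7 markers of macrophages and dendritic cells summed to 1874 there and to 1004 to 2837 on the others, within their range. Itgax was the brightest of them on every array and weighs most in the sum, at 9.84 there and 9.29 to 11.12 on the others. Csf1r, Itgax, Adgre1 and Cd68 were highest on other arrays. Lyz2, Cd14 and Fcgr3 were highest there, with Cd14 at 8.77 against at most 8.62 and Fcgr3 at 6.17 against at most 5.35. Lyz2 of that list was at 8.24 there and at the floor on the other 5. The part of these markers, or of the raised enterocyte markers there, was not tested.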
